A study of Mus musculus with 76 samples.

Results

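WSB/EiJ (WSB) neuronal cultures whose axons had been severed were compared with uncut WSB cultures of the same culture sets, both left without the inhibitor ID-8. The comparison took the deposited libraries of the condition WSB control cut and those of WSB control uncut, joined repeat runs of one library, and left 8 libraries from 10 sequenced samples, out of 70 libraries from 76 sequenced samples in the series. WSB/EiJ is a wild-derived inbred mouse strain; embryonic stem cells of it and of C57BL/6J (B6), the common laboratory strain, were turned into neurons, and polyadenylated RNA was sequenced. Beside the 4 cut and 4 uncut WSB control libraries, 4 cut and 4 uncut B6 control libraries, and 4 cut and 3 uncut WSB libraries given ID-8, a DYRK1A inhibitor, serve for 2 tests of difference. The labels used here give neither the time between axotomy and harvest nor how the axons were cut, and they do not say whether cell bodies alone or whole cultures were lysed. Each of the 4 WSB culture sets, named in the deposited table, gave 1 cut and 1 uncut control library, so the data form 4 pairs.

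When an axon is severed, the distal part degenerates and the cell body answers with a transcriptional programme. In injured peripheral neurons this runs through the kinase DLK and the JNK kinases, switches on Atf3, Jun and Sox11, raises growth proteins such as Gap43 and Sprr1a, and lowers genes of synaptic transmission and ion channels; neurons of the central nervous system mount it weakly. Glia near damaged axons turn reactive and raise Gfap, Vim and genes of the interferon and class I antigen presentation pathways.

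The 8 libraries held 21.29 to 99.19 M counts (median 33.65 M), with 18988 to 20461 genes detected. Neuronal identity held in all of them. The 17 pan-neuronal markers summed to 4465 to 12154 CPM (counts scaled to a common library total) in the 4 cut libraries and 6912 to 12398 CPM in the 4 uncut ones. The cultures also held astrocyte RNA, with the 14 astrocyte markers at 4106 to 25042 CPM in cut and 3892 to 19890 CPM in uncut libraries. The 13 fibroblast markers summed to 329.1, 4417.2, 1885.3 and 4201.8 CPM in cut libraries of sets 1 to 4. In the uncut libraries they summed to 212.1, 2774.7, 2286.8 and 2954.5 CPM, so that only set 3 was lower when cut. Culture set 1 stood apart in both conditions: Gfap, the astrocyte intermediate filament, had 154 CPM in its cut and 91.1 CPM in its uncut library, against 7402 to 13836 CPM in the other cut and 4878 to 9442 CPM in the other uncut libraries. The 6 microglial markers that passed the count filter, of 13 listed, summed to 1.4 to 6.2 CPM in cut and 1.0 to 9.3 CPM in uncut libraries, and the pluripotency factor Pou5f1 was at 0.10 CPM in 1 cut library and at 0.0 CPM in the other 7. A library outside the comparison, WSB ID-8 cut replicate 3, correlated with its culture set below the level of all other pairs; it shares in the estimate of spread, so counts of called genes are given with and without it wherever they differ.

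Axotomy left 1 gene past the test. Of 18106 genes tested with edgeR's quasi-likelihood test, culture set as a block and Benjamini-Hochberg adjustment over all genes, 1 was lower (0.00552%) and 0 were higher (0.0%) at an adjusted p under 0.05. At an unadjusted p under 0.05, 1964 genes were lower (10.8%) and 1177 higher (6.5%). Without WSB ID-8 cut replicate 3, 204 of 18046 genes were called lower (1.13%) and 68 higher (0.377%), and 271 of these 272 genes had an adjusted p over 0.045. DESeq2 on all 30 axon-stage libraries called 374 lower and 156 higher. Over all genes tested, 2255 were lower in every one of the 4 pairs (12.5%) and 1734 were higher in every pair (9.58%).

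Acsl4, the gene that passed, encodes an acyl-CoA synthetase that loads long polyunsaturated fatty acids into membrane lipids and is required for ferroptosis. It lies on chromosome X (GRCm38, 142317993 to 142390535, minus strand). It had 185, 63.8, 77.3 and 83.6 CPM in cut cultures of sets 1 to 4, against 255, 146, 158 and 134 CPM in the uncut cultures of the same sets. Every cut culture was below its own uncut partner, while set 1 was high in both conditions, so the groups overlapped. The group means were 102.5 ± 55.8 CPM in cut and 173 ± 55.4 CPM in uncut cultures (SD, n = 4 each). Acsl4 fell by 0.85 on the log2 scale (SE 0.126, edgeR adjusted p = 0.0246). The call was lost without the replicate block (adjusted p = 1) and with the 8 WSB control libraries alone (adjusted p = 0.332), where the values were -0.76 and -0.81. It was also lost when either library of set 2 or set 3, or the cut library of set 4, was left out, with values of -0.71 to -0.83.

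The other 14 genes that led the lower side did not pass the main test (edgeR adjusted p = 0.109 to 0.112). Each was lower in all 4 cut cultures than in its uncut partner. The genes leading either side were chosen by p from a fit that pairs the sets, which favours such agreement in sign. Glrb, the beta subunit of the glycine receptor, had 79, 50.1, 68.0 and 47.3 CPM in cut cultures of sets 1 to 4 and 101, 92.5, 104.8 and 67.5 CPM in uncut cultures (fitted log2 difference -0.59, SE 0.104, adjusted p = 0.109). Snap25, a SNARE protein of vesicle fusion, had 430, 156, 238 and 162 CPM in cut and 519, 286, 362 and 259 CPM in uncut cultures (-0.61, SE 0.125, adjusted p = 0.112). In both genes the smallest difference was in set 1 and the largest in set 2, and the cut culture of set 1, with that of set 3 for Glrb, lay within the uncut range. Cntnap1, the axonal Caspr protein of the paranode, stood alone among the 15 lower genes in having groups that were apart, with 23.9 to 41.9 CPM in cut and 43.4 to 58.1 CPM in uncut cultures (-0.66, SE 0.141). The share of all genes with groups apart is not reported here, so this trait, also where given below, only describes the gene's values. The rest included the cation channel Trpm2 (-0.93), the bicarbonate transporter Slc4a10 (-0.79), the synaptic adhesion protein Slitrk4 (-0.69), the cadherin Cdhr1 (-0.69) and the orphan receptor Gpr176 (-0.71). The others were Glt1d1 (-0.77), the branched-chain aminotransferase Bcat1 (-0.60), the GTPase-activating protein Arhgap26 (-0.57), the tubulin polyglutamylase Ttll7 (-0.52), the proteasome-associated deubiquitinase Usp14 (-0.42), which shares 26.0% of its exon length with other annotated genes, and the mitochondrial Gdap1 (-0.41).

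**Figure D1:**
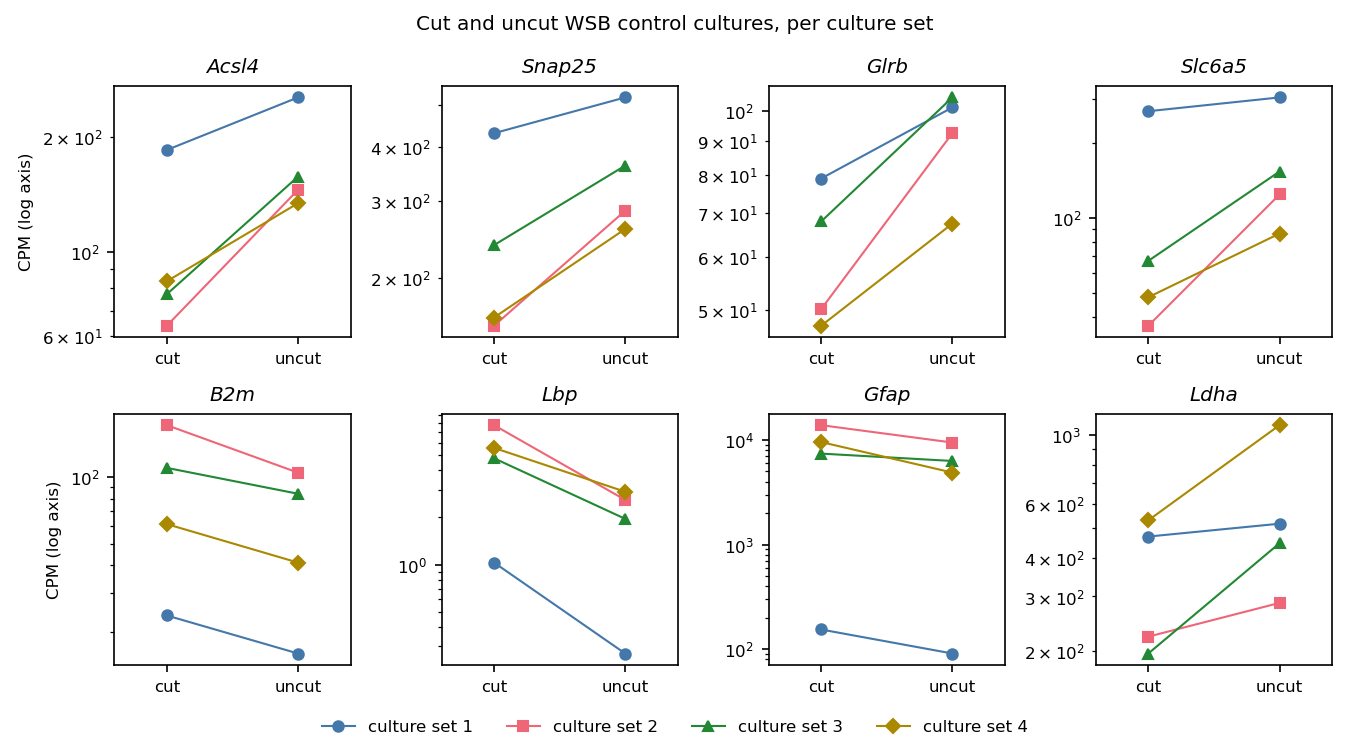
CPM (log axis) of 8 genes in cut and uncut WSB control cultures; each line joins the 2 libraries of a culture set. Acsl4, Snap25, Glrb, Slc6a5 and Ldha are lower and B2m, Lbp and Gfap higher in the cut culture of every set, and set 1 sits lowest in level for Gfap, at 154 CPM in its cut and 91.1 CPM in its uncut library.

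Of the 15 genes that led the higher side none passed the main test (adjusted p = 0.112 to 0.12). Without WSB ID-8 cut replicate 3, 29 of the 30 genes leading either side were called, and DESeq2 called 30. These genes were chosen by their p in the same libraries. B2m, the light chain shared by all class I antigen-presenting molecules, had 23.8, 172, 110 and 61.4 CPM in cut cultures of sets 1 to 4, against 16.0, 104.8, 84.1 and 41.2 CPM in uncut cultures. Its level differed more between sets than between conditions, yet each cut culture was above its partner by 0.39 to 0.71 on the log2 scale of CPM plus 0.5 (fitted difference 0.56, SE 0.109, adjusted p = 0.112). Lbp, the lipopolysaccharide-binding protein of innate immunity, had 1.03, 7.78, 4.78 and 5.57 CPM in cut and 0.27, 2.59, 1.96 and 2.92 CPM in uncut cultures, the largest fitted difference of the 15 (1.41, SE 0.328, adjusted p = 0.119). H2-T22, a non-classical class I heavy chain, had 4.90, 23.1, 17.1 and 14.0 CPM in cut and 5.01, 15.3, 10.7 and 7.73 CPM in uncut cultures (0.54); set 1 showed no excess, and 41.1% of the 50-base words in its transcripts also occur in other genes, mainly H2-T10, so its reads may be split. Gas8, a subunit of the ciliary dynein regulatory complex, differed by 0.34 and Trir by 0.33, both in the same direction in all 4 sets. Gipc1, a PDZ adaptor protein, stood alone among the 15 in having groups that did not overlap, with 57.6 to 63.9 CPM in cut and 41.7 to 57.4 CPM in uncut cultures. The margin was narrow, with the lowest cut value at 57.62 and the highest uncut value at 57.41 CPM. The remaining 9 were H2afj, Ppic, Snapc5, Ccdc34, Cyb5r3, Mtap, Hmgn3, Gatb and Nppc, with fitted differences of 0.33 to 0.94; Nppc, the C-type natriuretic peptide precursor, was lower in the cut culture of set 4 (10.2 against 11.1 CPM).

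**Figure D2:**
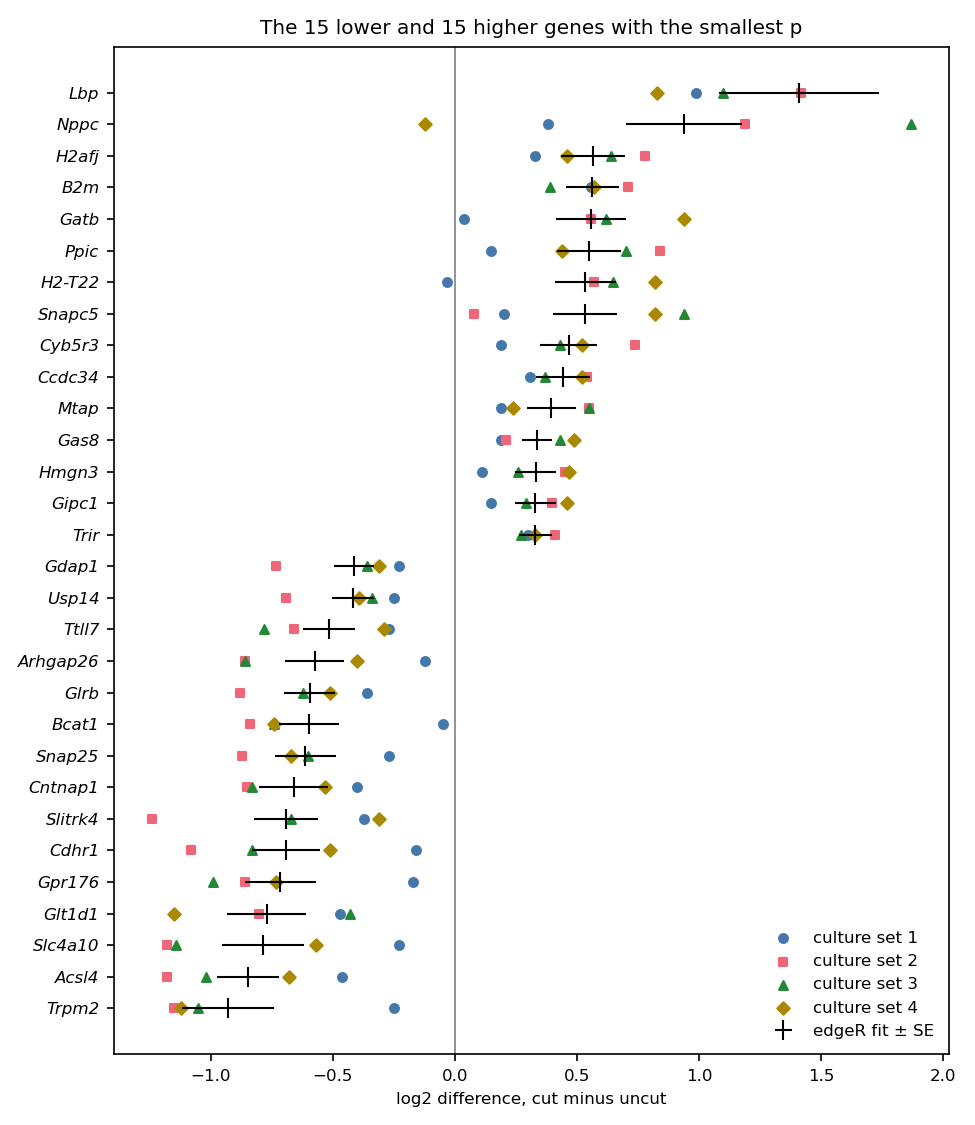
Log2 difference, cut minus uncut, for the 15 higher and 15 lower genes with the smallest p; symbols are the 4 culture sets (log2 of CPM plus 0.5) and the bar is the edgeR fit with its SE. All 15 lower genes have the 4 sets on one side of 0, while H2-T22 and Nppc among the higher genes each have 1 set below 0. The choice by p favours sets on one side.

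The promoters of B2m and H2-T22 are shown because both hold the core of the interferon-stimulated response element (ISRE), TTTC and TTTC with any 2 bases between them, as does the promoter of Ifit3, an interferon-induced gene of the interferon list. The windows are RefSeq's, build GRCm38.p6, 250 bases before to 50 after the gene's start, written 5′ to 3′ on the gene's strand, and the element is in capitals on whichever strand it was found. B2m is at chr2:122147437-122147736 (plus), H2-T22 at chr17:36042693-36042992 (minus) and Ifit3 at chr19:34583279-34583578 (plus).
B2m: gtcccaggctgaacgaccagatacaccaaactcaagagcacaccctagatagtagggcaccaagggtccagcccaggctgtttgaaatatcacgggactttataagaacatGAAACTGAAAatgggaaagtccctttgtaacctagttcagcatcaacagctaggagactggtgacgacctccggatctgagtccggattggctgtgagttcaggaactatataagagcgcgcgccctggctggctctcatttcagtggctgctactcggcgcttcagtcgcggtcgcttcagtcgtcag
H2-T22: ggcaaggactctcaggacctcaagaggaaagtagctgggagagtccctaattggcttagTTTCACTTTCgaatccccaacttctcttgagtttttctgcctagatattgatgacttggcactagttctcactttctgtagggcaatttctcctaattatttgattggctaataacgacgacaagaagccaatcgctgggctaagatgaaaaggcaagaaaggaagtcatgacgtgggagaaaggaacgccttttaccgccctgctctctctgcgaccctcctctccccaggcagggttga
Ifit3: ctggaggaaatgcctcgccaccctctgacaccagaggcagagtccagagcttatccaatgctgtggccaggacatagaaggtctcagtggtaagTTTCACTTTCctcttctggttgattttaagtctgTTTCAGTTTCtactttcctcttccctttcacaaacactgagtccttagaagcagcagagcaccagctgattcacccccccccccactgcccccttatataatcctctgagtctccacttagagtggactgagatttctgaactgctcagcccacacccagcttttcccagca
The first match began 139 bases before the start in B2m, 191 in H2-T22 and 156 in Ifit3, which held 2 matches. Searched on both strands, the element was in 8 of 11 promoters of the interferon list, in 2 of 8 promoters found for the 15 higher genes, in 0 of 8 found for the 15 lower genes, and in 3.57% of the 12963 tested genes with a promoter entry. Among the genes called without WSB ID-8 cut replicate 3 it was in 2 of 43 promoters of higher genes (4.65%) and 7 of 162 of lower genes (4.32%), shares alike in both directions. For the 15 higher genes the STAT element TTCNNNGAA was in 0 of 8 (8.22% of tested genes), the AP-1 element TGANTCA in 0 of 8 (6.65%) and the CRE TGACGTCA in 1 of 8 (3.29%). Overlaps between the elements were not removed.

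The interferon list was on the higher side in 3 of the 4 sets without passing the test. Its median log2 difference was -0.01 in set 1, 0.33 in set 2, 0.10 in set 3 and 0.81 in set 4. Of its 15 genes tested, 0 were called. Without WSB ID-8 cut replicate 3, 1 was called higher, against 0.377% of all genes: Ifit2, named outside the rule after its values were seen. In all 4 pairs 6 were higher, against 9.58% of all genes, and 1 was lower, against 12.5%. The median fitted difference was 0.44, against 0.00 over all genes. Ifit3 had 2.89, 12.1, 16.2 and 9.19 CPM in cut and 1.64, 8.80, 5.79 and 5.01 CPM in uncut cultures (0.96, adjusted p = 0.178); 51.5% of its transcript words occur in other genes. Ifit1 had 0.55 to 1.55 CPM in cut and 0.15 to 0.47 CPM in uncut cultures, so its groups were apart at a low level (1.5, edgeR adjusted p = 0.15). Usp18, which removes ISG15 and damps interferon signalling, had 0.67, 1.38, 0.93 and 2.01 CPM in cut and 0.55, 0.50, 0.76 and 0.29 CPM in uncut cultures (1.14, adjusted p = 0.146). The summed astrocyte markers were higher in the cut library of every pair with Gfap and of 3 pairs without it, and their part in these values was not tested.

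Neuronal genes as a group were lower in cut cultures. All 17 pan-neuronal genes had negative fitted differences (median -0.42, range -0.70 to -0.13), and 9 were lower in all 4 pairs, against 12.5% of all genes. None was called in the main fit and 2, Snap25 and Nefl, were called lower without WSB ID-8 cut replicate 3, against 1.13% of all genes. Nefl, the light neurofilament chain of the axon core, had 272, 99.5, 202 and 217 CPM in cut cultures of sets 1 to 4 and 314, 197, 259 and 329 CPM in uncut cultures (-0.54, adjusted p = 0.119). The neuronal enolase Eno2 had 287, 120, 178 and 176 CPM in cut and 319, 215, 275 and 405 CPM in uncut cultures (-0.70, adjusted p = 0.12), and the medium neurofilament chain Nefm had a fitted -0.52. The uncut library was the higher one in each pair, and the groups overlapped. In bulk RNA, fewer neurons, less RNA per neuron and more RNA from other cells cannot be told apart.

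Synaptic genes, which run vesicle release, had a median of -0.43 over 23 members. In all 4 pairs 13 were lower, against 12.5% of all genes, and 0 higher, against 9.58%. None was called in the main fit, and 4 were called lower without WSB ID-8 cut replicate 3, against 1.13% of all genes. Syp, a vesicle membrane protein, had 802, 268, 332 and 317 CPM in cut and 821, 524, 569 and 458 CPM in uncut cultures (-0.57, adjusted p = 0.125). Sv2a, a vesicle glycoprotein, had 499, 123.1, 138 and 164 CPM in cut and 529, 290, 282 and 239 CPM in uncut cultures (-0.71, adjusted p = 0.122). Cut and uncut differed least in set 1, which was not particular to this list. Over 13648 genes the median absolute log2 difference was 0.1 in set 1 and 0.249, 0.255 and 0.254 in sets 2 to 4. By set, the list's median log2 difference was -0.01 in set 1, -0.77 in set 2, -0.69 in set 3 and -0.21 in set 4.

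Transmitter and channel genes had negative medians in every set, lowest in set 2 and near 0 in sets 1 and 4. Of 15 transmitter identity genes 6 were lower and 1 higher in all 4 pairs (median -0.42), against 12.5% and 9.58% of all genes. The list's medians in sets 1 to 4 were -0.10, -0.80, -0.27 and -0.11. None was called, and 2 were called lower without WSB ID-8 cut replicate 3, against 1.13% of all genes. The glycine transporter Slc6a5, which marks glycinergic neurons, had 268, 36.8, 67.1 and 47.9 CPM in cut and 305, 124.1, 153 and 86.4 CPM in uncut cultures (-0.999, adjusted p = 0.12). Gad2, a GABA-synthesising enzyme, had 187, 148, 164 and 155 CPM in cut and 200, 258, 264 and 236 CPM in uncut cultures, with groups apart (-0.56, adjusted p = 0.12). The choline transporter Slc5a7 (-0.99) and the vesicular inhibitory transporter Slc32a1 (-0.58) were also lower in all 4 pairs. Among 23 receptor subunits 11 were lower and 0 higher in all pairs (median -0.38), against 12.5% and 9.58% of all genes. Their medians in sets 1 to 4 were -0.13, -0.83, -0.59 and -0.11. None was called, and 4 were called lower without WSB ID-8 cut replicate 3, against 1.13% of all genes. The list was led after Glrb by the GABA-A subunit Gabra3 (-0.60), while the NMDA receptor subunit Grin1 (-0.64) was higher in the cut culture of set 1 (183 against 178 CPM). Among 24 ion channels 10 were lower and 0 higher in all pairs (median -0.45), against 12.5% and 9.58% of all genes. Their medians in sets 1 to 4 were -0.05, -0.94, -0.67 and -0.08. None was called, and 2 were called lower without WSB ID-8 cut replicate 3, against 1.13% of all genes. The channel list was led by the sodium channels Scn1a at 13.1 to 25.0 CPM in cut and 29.2 to 38.0 CPM in uncut cultures, groups apart (-0.78, adjusted p = 0.121), Scn2a (-0.64) and Scn8a (-0.53), and the potassium channel Kcnh7 (-0.68).

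**Figure D3:**
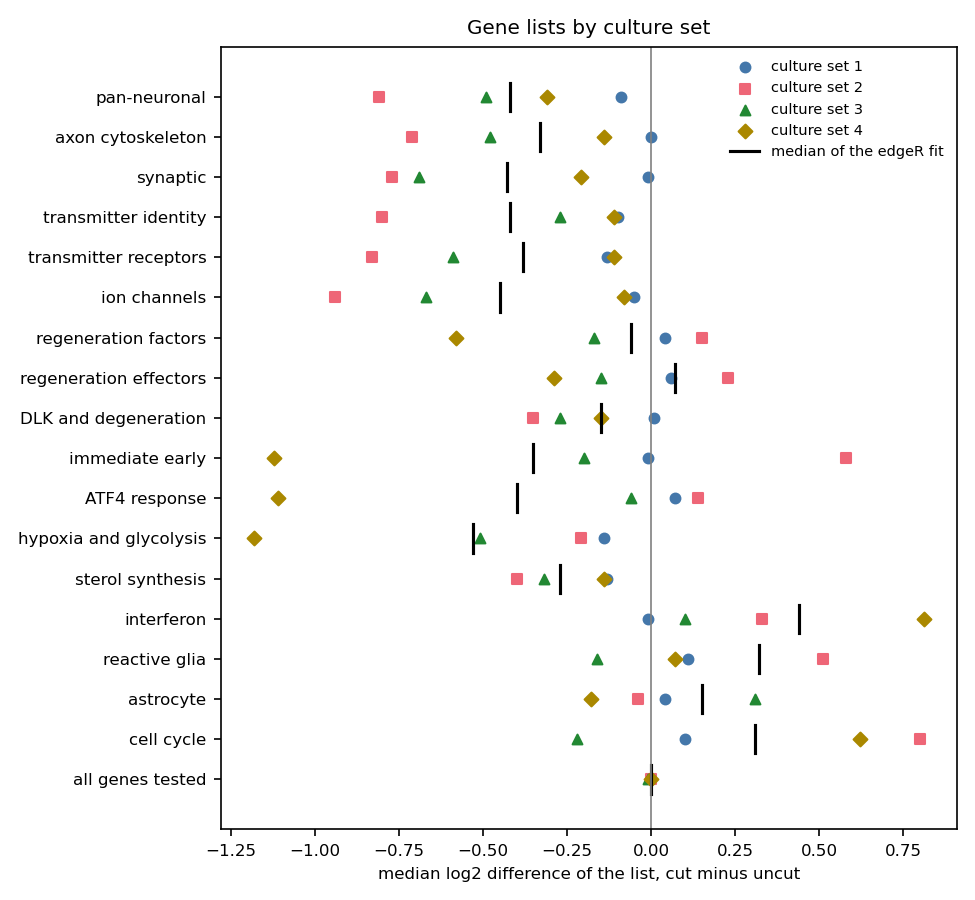
Median log2 difference, cut minus uncut, of 17 gene lists and of all genes tested; symbols are the 4 culture sets and the bar is the median of the edgeR fit. The neuronal lists lie at or left of 0 in every set, near 0 in set 1, lowest in set 2 and between -0.31 and -0.08 in set 4. The immediate early list ranges from -1.12 in set 4 to 0.58 in set 2.

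By median, genes of the axon itself were also lower in sets 2 to 4. Nefl and Nefm are in both this list and the pan-neuronal list, and Snap25 is in the pan-neuronal and synaptic lists. The calls of Nefl and Snap25 are counted in each of their lists. Of 27 axon cytoskeleton genes 12 were lower and 0 higher in all 4 pairs (median -0.33), against 12.5% and 9.58% of all genes. The medians in sets 1 to 4 were -0.0, -0.71, -0.48 and -0.14. In set 1 the list summed to 37902.9 CPM in the cut and 37400.6 CPM in the uncut library. None was called, and 1 was called lower without WSB ID-8 cut replicate 3, against 1.13% of all genes. The list held Nefl, Nefm, the axon guidance mediator Dpysl2 (739, 263, 348 and 814 CPM in cut and 823, 530, 554 and 897 CPM in uncut cultures; -0.49, adjusted p = 0.125) and the motor Kif5c (-0.38). Dpysl2 showed a wide gap in sets 2 and 3 and a narrow one in sets 1 and 4. Of 24 genes of the DLK pathway and axon degeneration, 7 were lower and 1 higher in all pairs (median -0.15), against 12.5% and 9.58% of all genes. None was called, and 2 were called lower without WSB ID-8 cut replicate 3, against 1.13% of all genes. Its leading genes were the JNK kinases Mapk8 (-0.32) and Mapk9 (-0.33), their activator Map2k4 (-0.26) and the scaffold Mapk8ip2 (-0.40).

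The regeneration programme of injured neurons had no shared direction. Of 20 regeneration transcription factors 0 were higher and 2 lower in all 4 pairs (median -0.06), and of 26 growth effectors 0 were higher and 5 lower (median 0.07). Over all genes 12.5% were lower in all 4 pairs, a share near that of the factors, and 9.58% were higher. None of either list was called, and 1 effector was called lower without WSB ID-8 cut replicate 3, against 1.13% of all genes. In pairs 1 to 3, 3 factors and 5 effectors were higher, against 16.9% of all genes, and 2 factors and 5 effectors were lower, against 18.9%. Without culture set 4 the median was 0.02 for the factors, a change of sign, and 0.22 for the effectors. Atf3, the injury-induced factor named here outside the rule and after its values were seen, had 2.22, 25.0, 12.7 and 6.63 CPM in cut and 1.84, 11.3, 9.53 and 29.1 CPM in uncut cultures (fitted 0.05, adjusted p = 0.974). It was higher in the cut culture of sets 1 to 3 and lower in set 4, with a fitted 0.67 without culture set 4 (adjusted p = 0.231), and its sign turned in several of the other alternatives. Jun, chosen the same way, had 70.8, 174, 110 and 215 CPM in cut and 67.5, 135, 140 and 358 CPM in uncut cultures (-0.15, adjusted p = 0.751), a sign that turned to 0.04 without culture set 4. Gap43, the growth cone protein, had 1033, 452, 530 and 306 CPM in cut and 992, 594, 661 and 378 CPM in uncut cultures (-0.25, adjusted p = 0.257). Hif1a (-0.31) and Klf7 (-0.35), among the factors, and Stmn2 (-0.31), Gal (-0.75) and Cacna2d1 (-0.58), among the effectors, were lower in all 4 pairs, while Smad1 (-0.25) and Stat3 (-0.25) were not.

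Culture set 4 held the extreme values of several stress lists, with its uncut library above the other 3 uncut ones. The hypoxia and glycolysis list summed to 4026 CPM in its cut and 9265 CPM in its uncut library, against 2363 to 2879 CPM in the other cut and 2605 to 3324 CPM in the other uncut libraries. The angiogenic factor Vegfa, named outside the rule after its values were seen, had 36.3, 40.5, 65.8 and 199 CPM in cut and 47.6, 51.0, 93.9 and 915 CPM in uncut cultures. The mitophagy receptor Bnip3 had 125, 71.0, 90.8 and 251.4 CPM in cut and 160, 101, 163 and 666 CPM in uncut cultures (-0.76, adjusted p = 0.121). The list's direction did not rest on set 4 alone. In pairs 1 to 3, 10 of 17 genes were lower (18.9% of all genes) and 3 higher (16.9%). The same 10 were lower in all 4 pairs (12.5% of all genes). The list's median was -0.53 with set 4 and -0.28 without it. None was called, and 3, Ldha, Pdk1 and Pfkp, were called lower without WSB ID-8 cut replicate 3, against 1.13% of all genes. Ldha, lactate dehydrogenase, had 469, 222, 196 and 530 CPM in cut and 516, 286, 446 and 1076 CPM in uncut cultures (-0.65), with Pdk1 (-0.56) and Pfkp (-0.53) also lower in all pairs.

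Other lists turned with set 4. The ATF4 response, which restores amino acid supply under stress, had a median of -0.40 over 21 genes with set 4 and 0.12 without it; Asns (-0.56), Vldlr (-0.65) and Slc7a3 (-0.63) had negative values and the cystine transporter Slc7a11 a positive one (0.63). The immediate early genes had a median of -0.35 over 24 genes with set 4 and 0.19 without it. Fos, named outside the rule after its values were seen, had 8.64, 46.4, 33.6 and 17.6 CPM in cut and 9.67, 25.7, 23.3 and 188 CPM in uncut cultures, higher in the cut cultures of sets 2 and 3 and lower in sets 1 and 4. Ier5 (0.35), Homer1 (-0.35), Fosl1 (-0.81) and Fosb (-1.37) led the list by p (adjusted p = 0.21 to 0.411). ER chaperones had a median of -0.14 with set 4 and 0.08 without it; Hspa5, the main ER chaperone, had 636 CPM in the cut and 1508 CPM in the uncut library of set 4, against 513 to 665 CPM in the other cut and 520 to 592 CPM in the other uncut libraries. The heat shock gene Hspa1b had 21.8 CPM in the cut and 253 CPM in the uncut library of set 4, against 9.92 to 15.5 CPM in the other cut and 12.6 to 14.5 CPM in the other uncut libraries, and 62.1% of its transcript words occur in other genes. Set 4 came from library batch 5 and the other 3 sets from batch 4 in the batch column of the deposited table, so batch and set cannot be told apart.

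**Figure D4:**
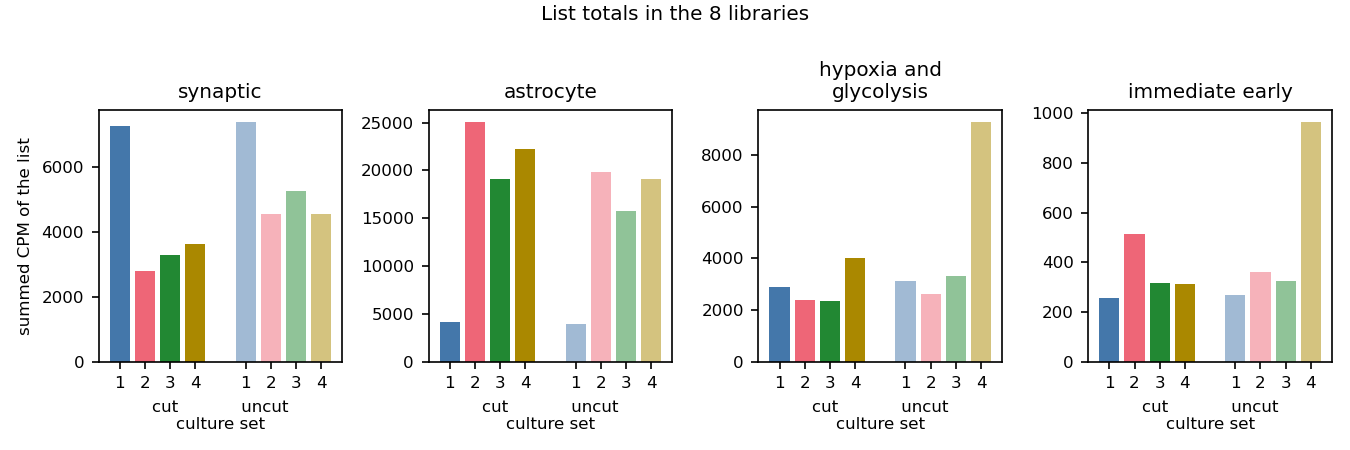
Summed CPM of 4 gene lists in each of the 8 libraries, cut on the left and uncut on the right, numbered by culture set. The synaptic list is highest and the astrocyte list lowest in set 1 in both conditions, and the uncut library of set 4 stands out at 9265 CPM for hypoxia and glycolysis genes and 964 CPM for immediate early genes.

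Cholesterol synthesis genes were lower across sets. Of 20 genes 11 were lower and 0 higher in all 4 pairs (median -0.27), against 12.5% and 9.58% of all genes. In pairs 1 to 3, 15 were lower, against 18.9% of all genes. None was called, and 1 was called lower without WSB ID-8 cut replicate 3, against 1.13% of all genes. Lss, lanosterol synthase, had 216, 83.3, 117.8 and 79.5 CPM in cut and 251.5, 133, 170.2 and 104.1 CPM in uncut cultures (-0.45, adjusted p = 0.161). Lss, Sqle (-0.30) and Fdps (-0.39, with 43.7% of its transcript words in other genes) were lower in all pairs, as were Elovl6 (-0.43) and Acly (-0.42) among 9 fatty acid synthesis genes, whose median was -0.24.

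Glial genes were mixed. Of 14 astrocyte genes 3 were higher and 1 lower in all 4 pairs (median 0.15), against 9.58% and 12.5% of all genes. The list had medians of 0.04, -0.04, 0.31 and -0.18 in sets 1 to 4, and 0 were called. Gfap was higher in every cut culture, with 154, 13836, 7402 and 9541 CPM in cut and 91.1, 9442, 6295 and 4878 CPM in uncut cultures (0.59, adjusted p = 0.209, and adjusted p = 0.0474 without WSB ID-8 cut replicate 3). Vim, another intermediate filament gene, had a fitted 0.41 and S100b 0.67, both higher in all 4 pairs. Glutamine synthetase Glul (-0.24) was lower in all 4 and the glycolytic aldolase Aldoc (-0.22) was lower in 3. Of 20 reactive glia genes 6 were higher and 0 lower in all pairs, against 9.58% of all genes (median 0.32, with 0.11, 0.51, -0.16 and 0.07 in sets 1 to 4), among them S1pr3 (0.44) and Srgn (2.23, at 1.32 to 5.37 CPM in cut and 0.25 to 1.99 CPM in uncut cultures). Of 25 cell cycle genes 3 were higher in all pairs, a count near the 9.58% of all genes, and 0 lower (median 0.31, with 0.10, 0.80, -0.22 and 0.62 in sets 1 to 4). The mitotic Birc5 had 4.17, 10.6, 5.36 and 13.2 CPM in cut and 3.73, 4.48, 5.18 and 4.82 CPM in uncut cultures (0.78, adjusted p = 0.125), while Rrm2 (0.48), Ccnb2 (0.66) and Cdk1 (0.66) were each higher in 3 pairs. The progenitor filament Nes had a fitted 0.57, and the fibroblast genes Lum (0.47) and Col3a1 (0.50) were higher in 3 pairs. Summed over the list, the 14 astrocyte genes were higher in the cut library of all 4 pairs. Gfap carried part of that sum: without it, an alternative chosen after seeing the data, the other 13 summed to 3952, 11206, 11700 and 12706 CPM in cut and 3801, 10448, 9420 and 14214 CPM in uncut cultures of sets 1 to 4, so that set 4 was lower. The 17 pan-neuronal genes summed to a lower total in the cut library of all 4 pairs.

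Exon length per gene, the summed length of all its annotated exons merged, moved with the differences. In the quintile of genes with the shortest exon length (median 1406 bases) 14.0% were higher and 4.0% lower in all 4 pairs. In the quintile with the longest (median 9376 bases) 4.7% were higher and 24.2% lower. The synaptic genes had a median exon length of 7362 bases and the ion channels of 11453 bases, against 3980 bases over all genes. The part of length in their values was not tested. The median log2 difference of the shortest and longest quintile was 0.030 and -0.036 in set 1, 0.158 and -0.157 in set 2, 0.105 and -0.165 in set 3, and 0.0 and -0.019 in set 4.

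**Figure D5:**
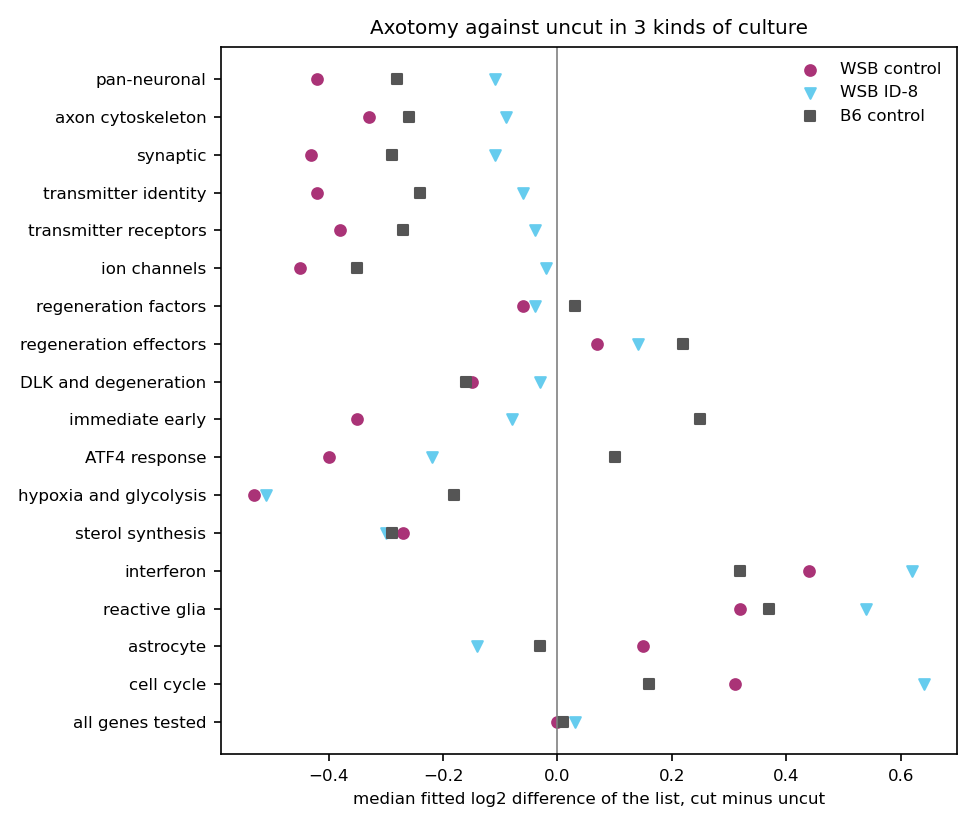
Median fitted log2 difference, cut minus uncut, of the same lists in WSB control, WSB ID-8 and B6 control cultures. The 6 neuronal lists are lowest in WSB control, from -0.45 to -0.33, between -0.35 and -0.24 in B6 control and between -0.11 and -0.02 in WSB ID-8, or -0.22 and -0.12 there without WSB ID-8 cut replicate 3. That last range holds no ID-8 library of culture set 3, which the WSB control medians include.

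Whether the response belonged to WSB was tested as a difference of differences. The WSB minus B6 axotomy response called 0 of 18106 genes (0.0%) with edgeR's quasi-likelihood test, 436 at an unadjusted p under 0.05, and 13 with DESeq2. Acsl4 had a fitted -0.85 in WSB and -0.36 in B6 (SE 0.125), a difference of -0.49 (SE 0.176, adjusted p = 1), Snap25 had -0.61 in WSB and -0.24 in B6, and B2m had 0.56 in WSB and 0.42 in B6. By list, the pan-neuronal median was -0.42 in WSB and -0.28 in B6, and the synaptic median -0.43 in WSB and -0.29 in B6. The immediate early medians had opposite signs, -0.35 in WSB and 0.25 in B6, and without culture set 4 the WSB value was 0.19. ID-8 was set against control cultures of the same strain in the same way: the WSB ID-8 minus control axotomy response called 0 of 18106 genes (0.0%), 2262 at an unadjusted p under 0.05, 12 with DESeq2 and 1 with limma-voom. Acsl4 had a fitted -0.27 in WSB ID-8 cultures, a difference from control of 0.58 (SE 0.188, adjusted p = 0.318), and the synaptic median was -0.11 in WSB ID-8 and -0.43 in WSB control cultures. WSB ID-8 cut replicate 3 is 1 of the 4 ID-8 cut libraries: without it, chosen after seeing the data, the synaptic median in WSB ID-8 was -0.22, and Acsl4 was at -0.30, a difference from control of 0.54 (SE 0.187, adjusted p = 0.385). That library is the only ID-8 library of culture set 3, which gave no uncut ID-8 library. The ID-8 values without it therefore rest on sets 1, 2 and 4. The control values include set 3, whose synaptic median was -0.69. With culture set as a block, differences in level between the deposited culture sets do not enter these p-values. They rest on the spread left after the terms for group and culture set. That spread was estimated over all axon-stage libraries, those of B6 and ID-8 included. The labels do not state whether the culture sets came from separate differentiations.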

How the data were processed

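Per the labels' protocols, polyadenylated RNA was taken with a column kit, made into stranded mRNA libraries and sequenced as paired reads. The authors deposited 1 table of expected counts per gene, in which 9.318% of values are not whole. Per the submitters' processing notes, Bowtie2, RSEM, featureCounts and limma were used with GRCm38; their versions and roles are not given in the sources used here. RSEM shares out reads that fit several genes, so near-identical genes can exchange counts.

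Repeat runs of a library were summed and rounded; 38924 genes were in the table, 1317 without a symbol (0.2652% of counts). All 30 axon-stage libraries (20.37 to 99.19 M counts) were fitted with edgeR 4.0.16 in R 4.3.3. The robust quasi-likelihood fit used TMM scaling and filterByExpr by group. Its terms were the groups, each a combination of strain, treatment and cut, with culture set as a block. Genes were called at a Benjamini-Hochberg adjusted p under 0.05 over 18106 genes. CPM values use TMM library sizes; differences per pair are of log2(CPM + 0.5). DESeq2 1.42.0 and limma-voom 3.58.1 were alternatives; fits were tested on simulated data.

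The table's culture names pair the samples: deviations of cut and uncut libraries of the same WSB set correlated at 0.553 to 0.892 in 4 of 4 pairs, and at -0.504 to 0.522 in 12 pairs of other sets. In all WSB axon groups 19 of 21 same-set pairs were over 0.1, and 19 of 19 without WSB ID-8 cut replicate 3. Replicates of a group differed beyond sampling noise.

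The named genes are the 15 with the smallest p in each direction (mean log2 CPM of at least 1, no placeholder symbol), the 4 smallest p of each list described, and those said to be chosen otherwise; a few genes that this rule picks are not reported here. The 37 lists hold 605 genes, of which 586 were tested. The comparison, its members and the lists were chosen with earlier results of these data known, so a list is described by counts and medians beside the same over all genes, with no test of its own. Alternatives chosen after seeing the data were the fits without culture set 4 (library batch 4 alone), those that drop WSB ID-8 cut replicate 3 together with another choice, the ID-8 list medians without that library and the astrocyte sum without Gfap. Precision is limited by 4 pairs; the depth is given in the report.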

Additional observations from a re-analysis of the deposited data

Results flagged for a closer look

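In each group of 4 libraries, a value was marked where the gap between 1 library and its nearest neighbour exceeded Dixon's 95% critical value as a share of the group's whole range; chance marks about 1 in 20 groups. Of 208 groups of named genes 24 were marked, of 74 groups of list sums 12, and the total counts of cut replicate 2 stood out at 99.19 M.

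Uncut replicate 4 accounted for 19 of these 37 marks, each of them high. They were Nppc at 11.14 CPM, Hif1a at 217.32, Smad1 at 124.56, Gal at 10.02, Fosl1 at 4.18, Fosb at 6.18, Fos at 187.84, Pfkp at 320.97, Bnip3 at 665.91, Vegfa at 914.5, Hspa1b at 253.46 and Hspa5 at 1508.43 CPM. The marked list sums of that library were 2102.2 CPM for regeneration factors, 964.1 for immediate early genes, 26.7 for epithelial genes, 2538.5 for the ATF4 response, 7146.0 for ER chaperones, 9264.6 for hypoxia and glycolysis and 620.5 CPM for ERK feedback genes.

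Culture set 1 gave the next block, and its marked genes were all high. In cut replicate 1 these were Acsl4 at 185.28 CPM, Ttll7 at 47.8, Sv2a at 498.67, Syp at 801.69, Slc6a5 at 268.23, Gabra3 at 103.72, Klf7 at 140.67, Mapk8ip2 at 237.09, Fdps at 373.2 and Acly at 796.91 CPM, with list sums of 3496.1 CPM for regeneration effectors and, on the low side, 84.0 CPM for the interferon list. In uncut replicate 1 they were Cacna2d1 at 205.61 CPM and the regeneration effectors at 3498.6 CPM. Rrm2 was high in cut replicate 2 at 47.24 CPM, and in cut replicate 4 the oligodendrocyte list summed to 1246.8 CPM and the epithelial list to 36.7 CPM. The part of these libraries in each result was not tested beyond the fits that leave them out.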

How the results depend on the processing

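The count of called WSB control genes was 1 in the main fit and 0 without the replicate block, where the culture sets are not paired, with and without WSB ID-8 cut replicate 3. It was also 0 with the library batch as the block, with the WSB axon libraries alone and with the 8 WSB control libraries alone. DESeq2 called 530 genes, and 1547 without WSB ID-8 cut replicate 3, an alternative chosen after seeing the data. Library batch 4 alone gave 1 gene, and 2 without that ID-8 library. Leaving out 1 library at a time gave 0 to 272 genes, and 0 to 1469 where WSB ID-8 cut replicate 3 was also left out; the counts over 1.5 times the main one were 272 without WSB ID-8 cut replicate 3, 239 without cut replicate 1 and 35 without uncut replicate 1. Of the 272 and the 530, 208 genes were shared (76.5% of the 272 and 39.2% of the 530), all with the same sign. The WSB minus B6 difference called 13 genes with DESeq2 and 0 with every other alternative run. The ID-8 minus control difference called 12 with DESeq2, 1 with limma-voom and 0 to 39 when libraries were left out, the 39 without WSB ID-8 cut replicate 1.

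Among the named genes, 4 changed sign in some of the alternatives. Atf3 (0.05) was at -0.14 without the replicate block, with and without WSB ID-8 cut replicate 3, and between -0.47 and 0.55 when libraries were left out; without culture set 4 it was at 0.67, and at 0.70 without WSB ID-8 cut replicate 3 as well. Without culture set 4 (library batch 4 alone, with and without that ID-8 library) Fos was at 0.43 and 0.44, Jun at 0.04 and 0.05 and Hspa5 at 0.03 and 0.03; with libraries left out, Fos lay between -0.82 and 0.18 and Jun between -0.34 and 0.01. The cause was not tested. Depth differed up to the 99.19 M counts of cut replicate 2, and precision is limited by the 4 pairs.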
